A study of Mus musculus with 18 samples.

Results

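The comparison described here is AQ in the drinking water against no AQ in wild-type mice on a high-fat diet (HFD), measured by RNA sequencing of skeletal muscle. Its members are the 6 libraries of the groups labelled WT-HFD-AQ and WT-HFD, 3 in each, of 18 libraries in the series. They were chosen by their labels alone, and all genes of the deposited table were used. Both groups are wild type, were fed HFD for 10 weeks, and differ by AQ, which was given freely in the water. The labels do not spell AQ out, and the sources used here give no dose. The other 4 groups of the series serve as reference. These are wild-type mice on normal chow without AQ (WT-NC) and with AQ (WT-NC-AQ), mice with a Nurr1 transgene on HFD (HFD-Nurr1-mTg), and the wild-type controls of that transgene on HFD (HFD-WT). The HFD-WT mice received no AQ by their labels and so form a separate untreated HFD group. Libraries are numbered as biological replicates. The sources used here name neither the muscle taken nor the sex, litters and sequencing days, so that p-values measure the spread between libraries. That spread was estimated within the groups of all 18 libraries, not from the 6 compared libraries alone.

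The series concerns activation of NURR1, the orphan nuclear receptor encoded by Nr4a2, in muscle. Muscle fibres on a fat-rich diet take up more fatty acids than they burn and store the surplus in lipid droplets, whose surface is coated by perilipins. Fatty acids also act as ligands of PPAR nuclear receptors, which switch muscle fuel use from glucose to fat through genes such as Pdk4, Angptl4 and Ucp3. Between the fibres, fibroblasts and vessel cells maintain a matrix of collagens, elastic fibres and proteoglycans that is known to thicken in obese animals.

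The 6 libraries held 10404895 to 14815234 reads, recovered from the deposited values. CPM here is the deposited signal, read counts divided by a library size that the authors scaled, and 3 reads corresponded to 0.191 to 0.277 CPM. Fold changes are differences of log2(CPM + 1) between group means, given with their standard error (SE), and the added 1 shrinks those of genes with few reads. Adjusted p-values are Benjamini-Hochberg values of limma over the 12524 tested genes, and genes under 0.05 are said to have risen or fallen. The muscle markers were high in every library. Acta1 lay at 37949, 35092 and 29863 CPM without AQ and 26579, 28976 and 26075 CPM with it, and the creatine kinase gene Ckm at 25850.0, 20712 and 20887 CPM and 19573, 21689 and 19113 CPM. The samples are bulk tissue, so that fewer cells of a type and less RNA per cell cannot be told apart.

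The 3 AQ libraries were closer to each other than the 3 untreated libraries were. The median absolute difference over genes was 0.110 to 0.139 on the log2 scale among AQ libraries and 0.146 to 0.164 among untreated ones. Untreated library 3 lay nearer to the AQ libraries (0.126 to 0.154) than to the other untreated libraries (0.157 and 0.164). Of all tested genes, 59.6% had the larger SD in the untreated group. Values are therefore given per library, in the order 1, 2, 3, wherever a result turns on them.

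AQ changed 6 of 12524 genes on HFD past the threshold (0.0479%), of which 2 rose (0.016%) and 4 fell (0.0319%). The median log2 fold change of all tested genes was 0.00, with 90% of them between -0.37 and 0.28. An unadjusted p under 0.05 was reached by 645 genes with higher values under AQ (5.15%) and 829 with lower values (6.62%). All 3 AQ libraries lay above all 3 untreated ones in 925 genes (7.39%) and below them in 1116 genes (8.91%). Against all 15 other libraries of the series, the AQ libraries on HFD lay above every one in 169 genes (1.35%) and below every one in 159 (1.27%). Without untreated library 3 the test called 224 genes, 86 higher (0.687%) and 138 lower (1.1%), among them the same 6. Leaving out any other library left 0 or 1 gene called by limma, with 1056 to 1280 genes at an unadjusted p under 0.05.

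**Figure D1:**
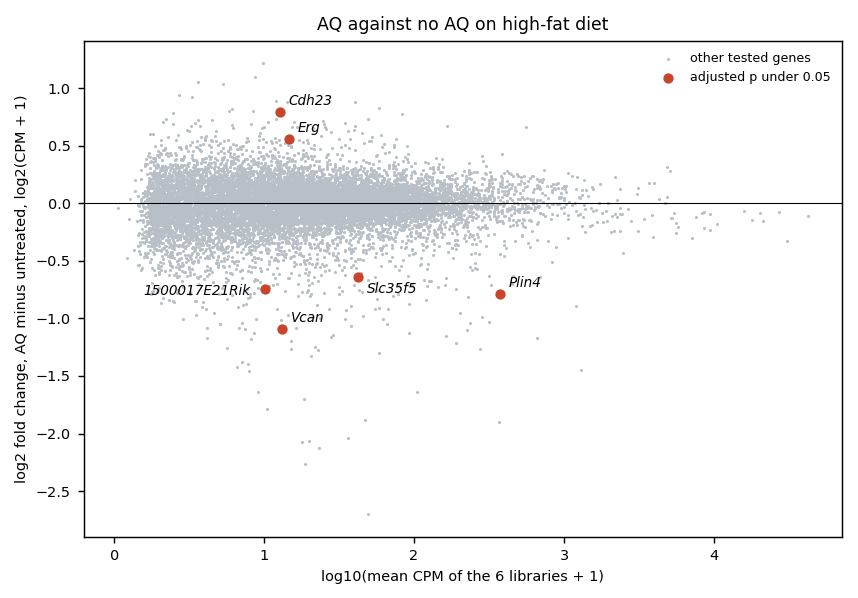
Log2 fold change of AQ against no AQ on HFD (vertical axis, on log2(CPM + 1)) over log10 of the mean CPM of the 6 libraries plus 1 (horizontal axis), with a point for each of the 12524 tested genes. The 6 genes past adjusted p 0.05 are in red with their names, and genes with larger fold changes that missed the threshold lie mostly below 0.

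Plin4 encodes perilipin 4, a coat protein of lipid droplets that is abundant in muscle and fat cells, and it fell. Plin4 lay at 501, 525 and 383 CPM without AQ and at 310.3, 266 and 236 CPM with it, and the highest AQ library stayed below the lowest untreated one. The log2 fold change was -0.79 ± 0.115 (SE) (limma adjusted p = 0.0202). On chow, where AQ and control mice are other animals, Plin4 averaged 373 CPM without AQ and 208 CPM with it, a log2 fold change of -0.84 (limma adjusted p = 0.00278). The HFD-WT libraries lay at 288 to 319 CPM, so that against them the AQ libraries differed by -0.17 (limma adjusted p = 0.343). Plin4 lies on chromosome 17 from 56100591 to 56109803 (GRCm38, minus strand) and overlaps Hdgfl2 on the opposite strand. The sources used here do not say whether strand was used in counting, and without it reads of such overlaps cannot be told apart.

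Vcan, which encodes versican, a large proteoglycan of the loose matrix, fell. Vcan lay at 21.7, 16 and 13 CPM without AQ and at 7.01, 5.81 and 9.24 CPM with it. Every AQ library was below all 15 others of the series, which ranged over 12.5 to 21.7 CPM. The log2 fold change was -1.09 ± 0.18 (SE) (limma adjusted p = 0.0267), and against HFD-WT it was -1.09 (adjusted p = 0.00105). The gene lies on chromosome 13 from 89655312 to 89742509 (minus strand), with the antisense gene Gm4117 opposite it.

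Slc35f5, a member of the solute carrier family that holds nucleotide-sugar transporters, also fell. Slc35f5 lay at 49.5, 56.2 and 45.3 CPM without AQ and at 33.5, 33.3 and 28.8 CPM with it, with no overlap. Its log2 fold change was -0.64 ± 0.105 (SE) (limma adjusted p = 0.0267). The HFD-WT libraries lay between the groups at 36.8 to 40.3 CPM, and the difference from them did not pass (log2 -0.25, limma adjusted p = 0.122). Of the 21 tested genes of its family list, 14 lay above 0 and 7 below, with a median of 0.01 (-0.01 without untreated library 1), and it was the only one called. Slc35f5 lies on chromosome 1 from 125560595 to 125595820 (plus strand).

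1500017E21Rik, annotated as an antisense RNA, fell as well. 1500017E21Rik lay at 10.2, 12.2 and 12.8 CPM without AQ and at 6.12, 7 and 6.56 CPM with it. Its log2 fold change was -0.75 ± 0.111 (SE) (limma adjusted p = 0.0202). The AQ libraries on HFD were near the chow level of 6.33 CPM, while the HFD-WT libraries, at 11.1 to 12.5 CPM, were near the untreated HFD level. It lies on chromosome 19 from 36614052 to 36705641 (minus strand) opposite Hectd2.

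Erg, an ETS transcription factor gene of endothelial cells, rose. Erg lay at 11.2, 10.9 and 10.5 CPM without AQ and at 15.6, 17.3 and 16.5 CPM with it, and no other library of the series exceeded 12.3 CPM. The log2 fold change was 0.56 ± 0.0893 (SE) (limma adjusted p = 0.0267), and 0.82 against HFD-WT (adjusted p = 3.95e-05). Erg lies on chromosome 16 from 95359169 to 95586593 (minus strand).

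Cdh23, which encodes the adhesion protein cadherin 23, rose too. Cdh23 lay at 6.92, 9.55 and 8.49 CPM without AQ and at 14.7, 16.2 and 14.2 CPM with it, and the highest of the 15 other libraries was at 12.8 CPM. Its log2 fold change was 0.79 ± 0.137 (SE) (limma adjusted p = 0.0405). The gene lies on chromosome 10 from 60302748 to 60696490 (minus strand) and overlaps Vsir on the opposite strand. All 6 called genes kept their sign in all 19 alternative analyses. Most of these reuse the same libraries, in which the groups did not overlap for any of the 6 genes, so that the sign could hardly turn. Each gene passed in 11 to 14 of the 19.

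**Figure D2:**
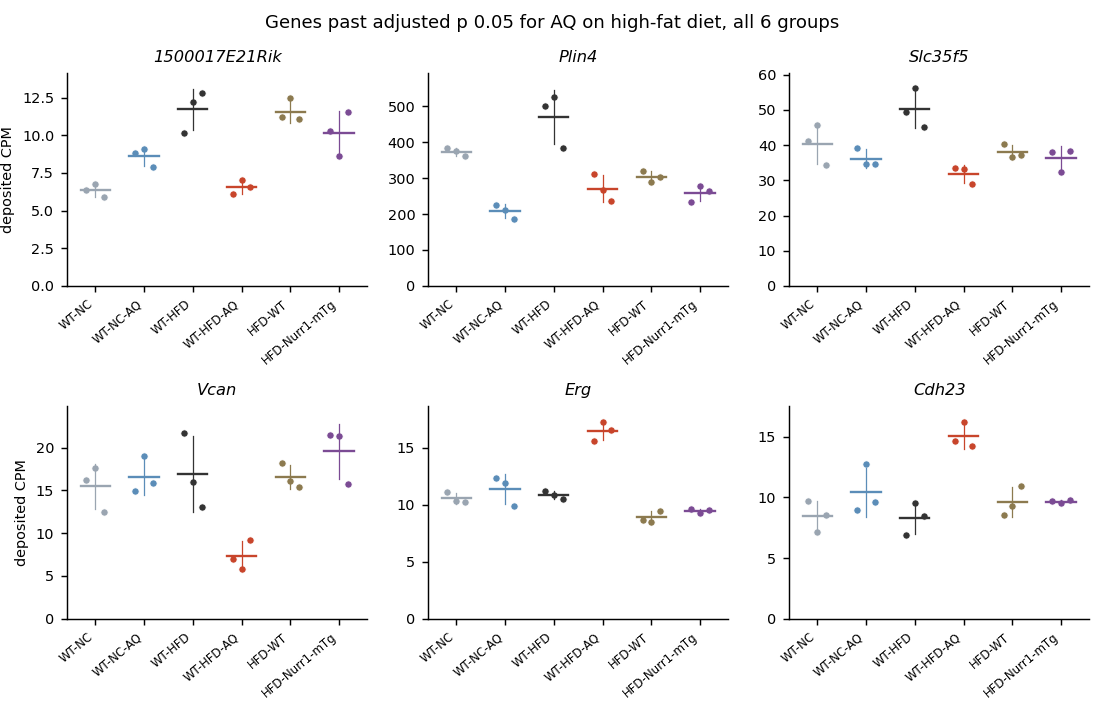
Deposited CPM (vertical axes, from 0) of the 6 genes past the threshold in the 6 groups of the series, with a point per library, a line at the mean and a bar of ± 1 SD of 3 libraries. The red AQ libraries on HFD stand outside all other libraries for Vcan, Erg and Cdh23, and overlap the range of the others for Plin4, Slc35f5 and 1500017E21Rik.

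The genes just outside the threshold had limma adjusted p-values of 0.0553 to 0.0903, and are given as values. Among those higher with AQ was Sema3a, a guidance ligand of vessels and nerves. Sema3a lay at 3.39, 2.74 and 4.21 CPM without AQ and at 6.75, 5.95 and 7.76 CPM with it (log2 fold change 0.82). Pdp1 encodes the phosphatase that activates the pyruvate dehydrogenase complex. Pdp1 lay at 113, 126 and 141 CPM without AQ and at 195, 190.3 and 220.5 CPM with it (log2 fold change 0.67). Ppm1k encodes the phosphatase that activates the branched-chain keto acid dehydrogenase. Ppm1k lay at 17.5, 17 and 20.2 CPM without AQ and at 27, 31.4 and 31.7 CPM with it (log2 fold change 0.69). Prex2, a Rac exchange factor gene, the nucleoside transporter gene Slc28a2 and Egflam, whose product binds dystroglycan at synapses, had log2 fold changes of 0.56, 0.66 and 0.64. Apol10b, Cnst, Haus4, Fam53b, Lnp and Tnfaip2 completed the 12 highest-ranked genes with higher values, at 0.36 to 1.04. In each of the 12 the groups did not overlap, which the choice of the genes required.

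The 12 genes ranked next with lower values are given as values too. Ccl6 lay at 10.2, 12 and 10.1 CPM without AQ and at 5.23, 5.04 and 4.34 CPM with it, and this chemokine gene was below all 15 other libraries. The chemokine gene Ccl9, the complement gene C4b, the acute-phase serpin gene Serpina3n and Pld4, a nuclease gene of phagocytes, had log2 fold changes of -0.88, -1.20, -1.46 and -0.55. Tnfrsf12a encodes Fn14, the receptor of the cytokine TWEAK, which is induced in damaged muscle. Tnfrsf12a lay at 28.6, 60.4 and 22.5 CPM without AQ and at 7.14, 8.89 and 5.36 CPM with it, a log2 fold change of -2.13 ± 0.422 (SE) (limma adjusted p = 0.0712). The lowest of the 15 other libraries held 10.1 CPM, so that all 3 AQ libraries were below it. Hmox1, the haem-degrading oxygenase gene, lay at 10.0, 14.1 and 11.7 CPM and 6.63, 6.44 and 6.93 CPM, also below all others. The remaining genes were the adhesion receptor gene Gpr133, the elastic fibre gene Mfap5, the matrix gene Dpt, S100a11 and Sap30, at -0.80 to -0.50.

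In the lipid droplet list Plin4 alone was called, with 11 of 24 tested genes above 0, 13 below and a median of -0.02, which turned above 0 when libraries were scaled to a common sum and was 0.07 without untreated library 2. All AQ libraries were below all untreated ones in 5 genes (against 8.91% of all genes) and above in 2 (against 7.39%). Plin2, the coat protein gene of most cell types, lay at 31.5, 32.4 and 42.4 CPM and 32.6, 29 and 32.2 CPM, with overlapping groups. G0s2, which encodes an inhibitor of the triglyceride lipase ATGL, lay at 16, 16.8 and 22.9 CPM without AQ and 37, 28.2 and 24.9 CPM with it (log2 fold change 0.66 ± 0.278 (SE), limma adjusted p = 0.358). Plin1 and Cidec encode droplet proteins of fat cells, and neither passed (limma adjusted p = 0.163 and 0.112). Plin1 lay at 8.78, 8.63 and 14.2 CPM without AQ and at 7.77, 2.94 and 2.96 CPM with it, and Cidec lay at 17.6, 27.5 and 34 CPM without AQ and at 17.3, 3.71 and 5.27 CPM with it. For both genes AQ library 1 was a little below the lowest untreated library, and AQ libraries 2 and 3 held less.

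Adipocyte markers were examined beside these genes, and none passed. Of 11 tested markers 9 lay below 0, with a median of -0.60, and in 7 every AQ library was below every untreated one (against 8.91% of all genes). Adipoq lay at 25, 25.6 and 31.9 CPM without AQ and at 19.1, 6.09 and 9.15 CPM with it, and the leptin gene Lep at 11.1, 24.5 and 54.8 CPM and 18.8, 2.03 and 2.96 CPM, where AQ library 1 lay within the untreated range. The summed markers ranged over 2838 to 3926 CPM without AQ and 2159.7 to 2621 CPM with it, most of it from genes that muscle expresses too. None of the 11 was at 0, which the filter of 1 CPM in 3 or more libraries made likely. Plin4 is itself expressed by fat cells. AQ library 1 held 19.1 CPM of Adipoq and 310.3 CPM of Plin4. For both genes it was the highest of the AQ libraries and below every untreated library. The part of fat cells in the Plin4 difference was not tested.

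Of the 20 tested genes of the list of lipid overload and PPAR-linked genes, none passed. The list also holds the receptor genes Ppara, Ppard, Pparg, Rxra and Rxrg and other regulators, so that not all its members are PPAR targets. Angptl4 encodes a secreted inhibitor of lipoprotein lipase. Angptl4 lay at 16.5, 16.8 and 12 CPM without AQ and at 4.46, 3.78 and 2.77 CPM with it, a log2 fold change of -1.79 ± 0.484 (SE) (limma adjusted p = 0.137). The AQ level was near the chow mean (3.52 CPM), and HFD-WT libraries spread over 4.56 to 25.3 CPM. In a fit of the 2 compared groups alone, Angptl4 was the only gene that limma called. Pdk4 encodes the kinase that switches pyruvate dehydrogenase off. Pdk4 lay at 1709, 3060.2 and 1041 CPM without AQ and at 679, 733 and 539 CPM with it (log2 fold change -1.45 ± 0.423 (SE), limma adjusted p = 0.166). Every AQ library was below every untreated one, and untreated library 2 was far above the others. Ucp3 lay at 355, 452 and 169.9 CPM without AQ and at 157, 128 and 155 CPM with it, and here untreated library 3 of this mitochondrial carrier gene was near the AQ level (log2 fold change -1.04). The HFD-WT libraries held 85.5 to 156 CPM of Ucp3, so that against them Ucp3 was not lower with AQ (log2 0.20, limma adjusted p = 0.737). Pdk4 differed from HFD-WT by -0.85 (limma adjusted p = 0.192). Over the list 13 of 20 lay below 0, the median was -0.16, and in 5 genes (25% against 8.91% of all genes) the AQ libraries were all lower. Without untreated library 3 the median was -0.30, and 4 of the 20 fell (against 1.1% of all genes), Pdk4 by 1.83 and Ucp3 by 1.45 on the log2 scale.

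The 3 matrix lists were joined, and most of their genes had lower values with AQ. Of 119 tested genes for collagens, proteoglycans, glycoproteins and remodelling enzymes, 107 lay below 0 and 12 above, with a median of -0.30 against 0.00 for all genes. In 49 (41.2%, against 8.91% of all genes) every AQ library was below every untreated one, and in 0 above. In 14 (11.8%, against 1.27%) they were below all 15 other libraries. Vcan alone fell past the threshold.

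Among 30 collagen chains 27 lay below 0, with a median of -0.44. Col3a1 encodes the fibrillar collagen of soft tissue. Col3a1 lay at 609.5, 397 and 283 CPM without AQ and at 175, 210.1 and 217 CPM with it (log2 fold change -1.03 ± 0.243 (SE), limma adjusted p = 0.0963), all below the other 15 libraries. Col5a1 and Col5a3 encode chains of collagen V, which sets fibril size. Col5a1 lay at 101, 58.1 and 58.7 CPM without AQ and at 36.7, 41 and 39.7 CPM with it (log2 -0.83, adjusted p = 0.0751), and Col5a3 lay at 72.6, 46.9 and 33 CPM without AQ and at 23.1, 24.3 and 20.4 CPM with it (log2 -1.06, limma adjusted p = 0.083). Untreated library 1 was the highest for all 3 of these chains and AQ libraries varied little. The main chain of tendon and scar, Col1a1, overlapped between groups at 673, 303 and 193 CPM and 129.9, 170.1 and 228 CPM. The basement membrane gene Col4a1 lay at 388, 269 and 220.3 CPM and 175, 182 and 132 CPM, again highest in untreated library 1.

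Fbn1 and Eln belong to the elastic fibre, and neither passed. Fbn1 encodes fibrillin 1, the microfibril scaffold. Fbn1 lay at 124, 73.6 and 64 CPM without AQ and at 39.8, 47.8 and 44 CPM with it (log2 fold change -0.92 ± 0.206 (SE), limma adjusted p = 0.0919). Eln encodes elastin. Eln lay at 58.8, 33.6 and 22.2 CPM without AQ and at 15.2, 16 and 14.6 CPM with it. In both genes the AQ libraries were below all 15 others. Of 49 tested proteoglycan and glycoprotein genes 43 lay below 0, with a median of -0.23 (-0.14 without untreated library 1). The small proteoglycan gene Dcn overlapped between groups at 872, 766 and 757 CPM and 692, 795 and 858 CPM (log2 -0.03). Periostin (Postn), made by activated fibroblasts, lay at 28.7, 36.4 and 17 CPM and 9.62, 12.7 and 16.5 CPM.

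Of 40 remodelling enzymes and inhibitors 37 lay below 0, with a median of -0.30. Loxl1, which crosslinks elastin, lay at 27.5, 19.1 and 21.8 CPM and 14.3, 14.9 and 13.7 CPM (log2 -0.62, limma adjusted p = 0.098). Lox, the collagen crosslinking enzyme gene, lay at 47.9, 29 and 17.3 CPM and 15, 11.7 and 15.6 CPM. The proteases Adamts1 and Adamts12, of which Adamts1 cleaves versican, had log2 fold changes of -1.05 and -0.67. The AQ libraries were below all untreated libraries for each of these 4 genes, by a narrow margin for Lox.

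The second untreated HFD group gave the same direction for the matrix. Against HFD-WT, 1013 of all genes were lower with AQ (8.09%) and 724 higher (5.78%), and of the 119 matrix genes 58 fell and 2 rose, with a median of -0.52. The HFD-WT libraries held 121 to 170.3 CPM of Fbn1 and 72.8 to 99.5 CPM of Col5a3, near or above the highest untreated library. These mice belong to another part of the study, and AQ and the difference between the cohorts cannot be told apart there. Without untreated library 3, which lay nearest to the AQ libraries, 17 of the 119 fell (against 1.1% of all genes) and 0 rose (against 0.687%). Without untreated library 1 limma called 1 of all genes. The medians were then -0.32 for collagens, -0.14 for proteoglycans and glycoproteins and -0.21 for remodelling genes.

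Markers of the cells that make or enter the matrix were counted beside it, and none passed. Of 12 fibroblast markers 10 lay below 0 (median -0.26), and their sum ranged over 3426 to 5108 CPM without AQ and 2808 to 3311 CPM with it. Among these markers Col1a1, Col1a2, Col3a1, Dcn and Lum are members of the matrix lists too, so that the marker values are not separate from the matrix values. Pdgfra, the receptor that marks fibro-adipogenic progenitors, lay at 65.3, 52.8 and 49.5 CPM and 36.6, 45.3 and 44.6 CPM. Of 17 leukocyte markers 16 lay below 0 (median -0.29), with every AQ library below every untreated one in 9 (against 8.91% of all genes), and their sum ranged over 265 to 325 CPM without AQ and 232 to 251 CPM with it. Cd163, a haemoglobin scavenger receptor of resident macrophages, lay at 26.4, 29.1 and 20.2 CPM and 14.1, 14.2 and 13.7 CPM, while the pan-leukocyte gene Ptprc overlapped at 3.87, 4.4 and 4.61 CPM and 2.17, 4.69 and 4.25 CPM. The HFD-WT libraries held 7.22 to 15.2 CPM of Cd163, and against them Cd163 differed by 0.33 and Pdgfra by -0.03. Against HFD-WT 16 of the 17 leukocyte markers (median -0.37) and 8 of the 12 fibroblast markers (median -0.17) lay below 0. No tested marker of either list was at 0 in all libraries of a group, which the filter of 1 CPM in 3 or more libraries made likely. Of 9 markers of tendon and its junction with muscle 8 lay below 0, with every AQ library below every untreated one in 3 (against 8.91% of all genes). Their median was -0.23, -0.02 without untreated library 1, and -0.73 against HFD-WT, where 5 of the 9 fell (against 8.09% of all genes). Their sum ranged over 512 to 795 CPM without AQ and 491 to 557 CPM with it, and untreated library 1, the highest for the collagen list, had the highest mean of these markers too (0.51 above the mean of the 6 libraries on the log2 scale). The tendon markers Fmod, Comp, Thbs4 and Col22a1 are members of the matrix lists too. Of 11 pericyte and smooth muscle markers 6 lay below 0. The smooth muscle genes Acta2 and Cnn1 had log2 fold changes of -0.92 and -0.75, with Acta2 at 96.5, 75 and 45.1 CPM and 40.3, 33.7 and 34.3 CPM, while the pericyte genes Rgs5 and Pdgfrb overlapped (log2 0.24 and 0.05). Whether cell number accounts for the matrix values was not tested.

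**Figure D3:**
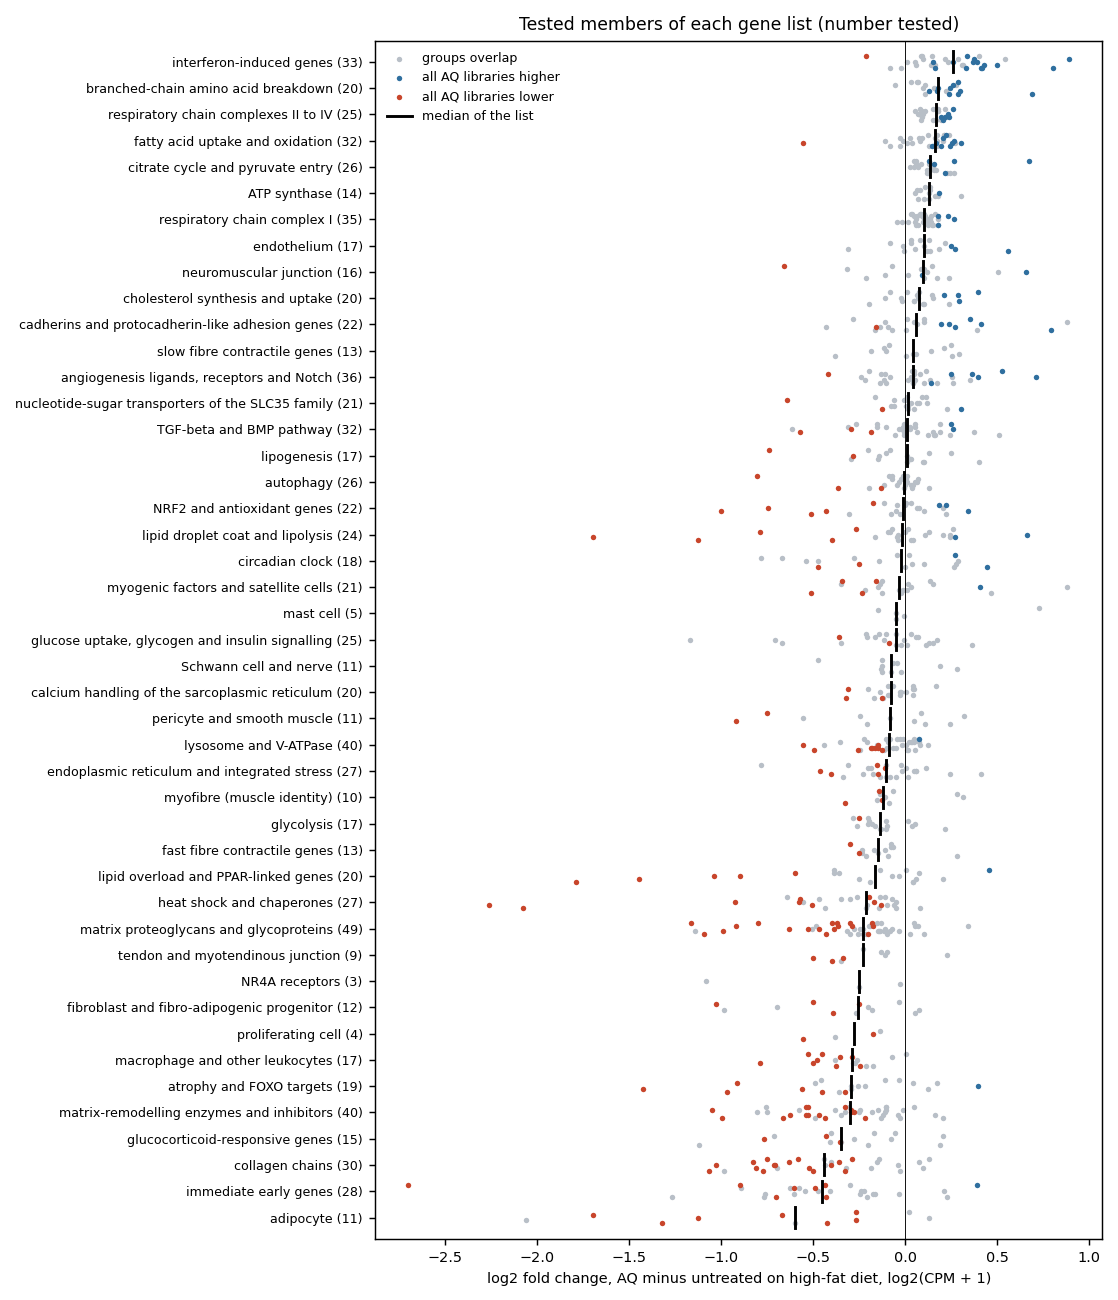
Log2 fold changes (horizontal axis, on log2(CPM + 1)) of the tested members of all 45 gene lists, one line per list with the number tested in brackets, ordered by the median (black bar). Points are red where all AQ libraries were below all untreated ones and blue where all were above, and red points gather in the adipocyte, collagen and remodelling lists and blue ones in the interferon and amino acid lists.

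The nuclear-encoded genes of mitochondrial energy supply lay above 0 by small amounts. Of 100 tested genes for respiratory complexes, ATP synthase and the citrate cycle, 98 lay above 0, with a median of 0.13, and none passed. In 16 (16%, against 7.39% of all genes) every AQ library was above every untreated one, and in 15 (15%, against 1.35%) above all 15 other libraries. Sdhb encodes the iron-sulphur subunit of succinate dehydrogenase. Sdhb lay at 496, 539.5 and 459 CPM without AQ and at 577, 637 and 546 CPM with it (log2 fold change 0.24 ± 0.111 (SE), limma adjusted p = 0.42). Cox7b and Cox6c, subunit genes of cytochrome oxidase, had log2 fold changes of 0.23 and 0.26, and Ndufa4 and Ndufv1 of 0.23 and 0.27. Untreated library 3 was the lowest of the 6 libraries for each energy list, and without it the medians were 0.05 to 0.11. Against HFD-WT 43 of the 100 rose (against 5.78% of all genes) and 1 fell (against 8.09%), with a median of 0.30, under the same limit on cohorts.

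Beside the values of the inhibitor kinase gene Pdk4, those of the activating phosphatase gene Pdp1 averaged 202 ± 16.2 against 127 ± 14 CPM (SD, n = 3), above all 15 other libraries. The citrate cycle gene Idh3g lay at 358, 373 and 342 CPM and 422, 466 and 402 CPM. Fatty acid uptake and oxidation genes lay above 0 in 26 of 32, with a median of 0.16 (0.09 without untreated library 1) and every AQ library above every untreated one in 9 (against 7.39% of all genes). Acadm, the medium-chain dehydrogenase gene, lay at 414, 471 and 439 CPM and 515, 523 and 537 CPM, above all other libraries. Cpt1a, the liver-type carnitine transferase gene, lay the other way at 26.8, 26.6 and 22.2 CPM and 18.2, 16 and 16.3 CPM (log2 -0.55, limma adjusted p = 0.236).

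Branched-chain amino acid breakdown lay above 0 in 19 of 20 genes, with a median of 0.18. In 10 of them (50%, against 7.39%) every AQ library was above every untreated one. Bcat2, the mitochondrial aminotransferase that starts the pathway, lay at 55, 52.8 and 60.0 CPM and 67.5, 74.2 and 63.7 CPM. Ivd and Aldh6a1, dehydrogenases further down, had log2 fold changes of 0.30 and 0.29 with limma adjusted p-values of 0.281 and 0.186. Ppm1k, which activates the pathway's committed step, had the largest difference of the list. The sum of the list ranged over 1618 to 1677 CPM without AQ and 1811 to 1958 CPM with it. The groups did not overlap in that sum.

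**Figure D4:**
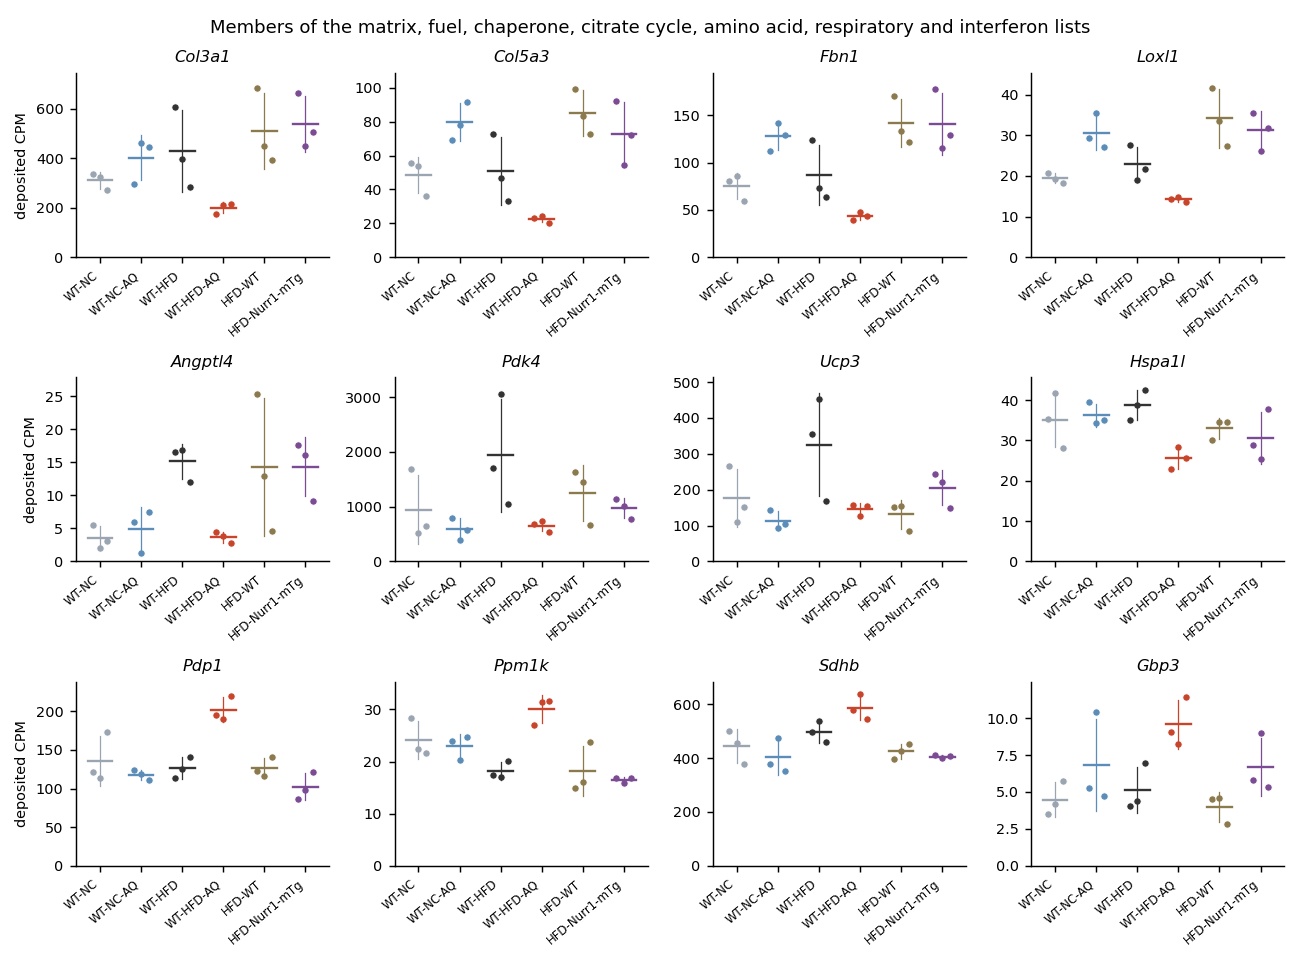
Deposited CPM (vertical axes, from 0) of 12 genes described in the text in the 6 groups of the series, with a point per library, a line at the mean and a bar of ± 1 SD of 3 libraries. The red AQ libraries on HFD are below all others for Col3a1, Col5a3, Fbn1 and Loxl1 and above all others for Pdp1 and Sdhb, whereas for Angptl4, Pdk4 and Ucp3 they are within the range of the untreated chow libraries.

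Immediate early genes, mostly transcription factor genes that switch on within minutes of a stimulus, lay below 0 in 25 of 28, with a median of -0.45 and every AQ library below every untreated one in 7 (against 8.91% of all genes). Atf3 is a stress-induced repressor. Atf3 lay at 22.1, 245 and 7.89 CPM without AQ and at 3.5, 6.51 and 4.44 CPM with it (log2 fold change -2.70 ± 0.898 (SE), limma adjusted p = 0.225). Untreated library 2 was far above the other 5, and without it the log2 fold change was -1.33. Myc lay at 6.98, 12.2 and 4.41 CPM and 2.61, 3.71 and 4.16 CPM, and the vascular and epithelial factor gene Klf4 at 27.8, 19.5 and 13.3 CPM and 11.3, 12.6 and 10.7 CPM, below all other libraries. Fos overlapped between groups at 16.6, 47 and 3.41 CPM and 2.99, 10.2 and 4.99 CPM. None of the 28 passed, and without untreated library 2 the median of the list was -0.21. Without untreated library 3 it was -0.58, and 3 fell (against 1.1% of all genes). Against HFD-WT it was -0.57, with 24 of 28 below 0, and 6 fell (against 8.09% of all genes), under the same limit on cohorts.

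Heat shock genes encode chaperones that hold and refold proteins, and their shared switch, HSF1, binds heat shock elements. Of 27 tested genes 26 lay below 0, with a median of -0.21, and 9 groups were apart downward (33.3%, against 8.91%). Hspa1b lay at 5.6, 92.4 and 3.01 CPM without AQ and at 1.53, 2.31 and 1.66 CPM with it, again highest in untreated library 2, and its near-identical copy Hspa1a at 6.98, 84.2 and 3.07 CPM and 2.17, 2.52 and 2.31 CPM. Reads of these copies could be split in unknown ways. The small heat shock protein gene Hspb1 lay at 26.3, 89.1 and 27.6 CPM and 18.3, 23.2 and 21.1 CPM. Hspa1l was not highest in untreated library 2. Hspa1l lay at 35.1, 38.8 and 42.4 CPM without AQ and at 23, 28.4 and 25.6 CPM with it (log2 fold change -0.58 ± 0.14 (SE), limma adjusted p = 0.0991). Without that library the median of the list was -0.14, without untreated library 3 it was -0.33, and the HFD-WT libraries held 1.86 to 2.32 CPM of Hspa1b, near the AQ level.

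Promoters of these genes are shown because HSF1 is known to act through this element. The heat shock element was searched as GAANNTTC or TTCNNGAA on both strands in the RefSeq windows of 300 bases, 250 before to 50 after the start (GRCm38.p6, the first window listed per gene). It was found in 10 of 22 promoters of the tested heat shock genes (45.5%) and in 11.7% of 9438 promoters of all tested genes. The windows of 2 members with large differences follow, with the element in capitals. Hspa1b is at chr17:34959189-34959488 on the minus strand and Hspb1 at chr5:135887669-135887968 on the plus strand.
Hspa1b: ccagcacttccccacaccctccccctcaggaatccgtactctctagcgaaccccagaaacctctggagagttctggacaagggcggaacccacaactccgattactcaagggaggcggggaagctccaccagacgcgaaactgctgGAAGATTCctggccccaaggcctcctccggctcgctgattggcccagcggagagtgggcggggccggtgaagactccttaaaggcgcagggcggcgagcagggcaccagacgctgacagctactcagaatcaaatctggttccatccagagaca
Hspb1: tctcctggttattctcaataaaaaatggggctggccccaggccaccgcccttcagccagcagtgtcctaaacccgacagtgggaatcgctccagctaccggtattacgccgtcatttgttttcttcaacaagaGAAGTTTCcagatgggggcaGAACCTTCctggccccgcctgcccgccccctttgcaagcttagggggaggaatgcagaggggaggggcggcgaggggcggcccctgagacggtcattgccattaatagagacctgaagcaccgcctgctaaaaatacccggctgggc
Hspa1b holds 1 match and Hspb1 holds 2. The cAMP response element TGACGTCA was found in 2 of 21 immediate early promoters (9.52%) against 3.23% of all, its core TGACG in 8 (38.1%) against 31.9%, and the CArG box in 1 (4.76%) against 1.36%. Each TGACGTCA also counts as a TGACG. The Atf3 window at chr1:191183284-191183583 (minus strand) holds 1 core, in capitals as it reads on this strand.
Atf3: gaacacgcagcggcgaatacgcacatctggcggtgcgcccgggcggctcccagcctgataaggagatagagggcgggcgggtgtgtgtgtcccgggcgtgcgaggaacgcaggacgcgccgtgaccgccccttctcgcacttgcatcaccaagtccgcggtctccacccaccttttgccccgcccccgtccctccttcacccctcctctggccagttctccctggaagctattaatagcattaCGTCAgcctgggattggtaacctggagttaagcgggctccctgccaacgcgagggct
The PPAR direct repeat (DR1) was found on either strand in 0 of 19 promoters of the lipid droplet list and in 0.0318% of all. A match is a description of letters and not a measured site.

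Atrophy genes, which encode ubiquitin ligases and other products of wasting muscle, lay below 0 in 15 of 19 (median -0.29, or -0.17 without untreated library 2), with every AQ library below every untreated one in 6 (against 8.91% of all genes). Trim63 encodes the ligase MuRF1. Trim63 lay at 325, 316 and 274 CPM without AQ and at 205, 203 and 209 CPM with it (log2 fold change -0.56 ± 0.152 (SE), limma adjusted p = 0.137). The partner ligase gene Fbxo32 lay at 392, 549 and 399 CPM and 366, 381 and 310.4 CPM. The metallothionein gene Mt2 lay at 10.4, 9.38 and 5.95 CPM and 2.17, 2.17 and 3.24 CPM (log2 -1.43, limma adjusted p = 0.0923), below all other libraries, and Cdkn1a at 15.4, 18.1 and 11.2 CPM and 8.03, 8.82 and 5.36 CPM. The autophagy gene Gabarapl1 lay at 96.7, 120.1 and 60.2 CPM and 51.4, 52.5 and 47.3 CPM, though its list as a whole had a median of -0.01.

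Of 15 glucocorticoid-responsive genes 13 lay below 0 (median -0.35, or -0.19 and -0.23 without untreated library 1 or 2). Fkbp5, a receptor chaperone gene that glucocorticoids induce, lay at 150.3, 201 and 45.7 CPM without AQ and 53.4, 51.6 and 47.3 CPM with it. Untreated libraries 1 and 2 were high and library 3 was below the AQ libraries, so that the groups overlapped. The adjusted p was 0.201 by limma with all libraries and 0.000786 without library 3. Against HFD-WT the median of the list turned to 0.11. The clock genes Arntl and Per2, which peak at opposite times of day, lay at 11.8, 8.38 and 8.69 CPM against 5.29, 7.7 and 6.93 CPM and at 35.4, 47.8 and 42.9 CPM against 49.8, 52.2 and 49.5 CPM. Chow and HFD-WT mice had more Arntl (18.2 and 26.8 CPM on average) and less Per2 (32.2 and 13.3 CPM), and the sources used here give no hour of collection.

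Interferon-induced genes lay above 0 in 30 of 33, with a median of 0.26. In 14 (42.4%, against 7.39%) every AQ library was above every untreated one, and none passed. The AQ libraries were above all 15 other libraries in 0 of the 33 (against 1.35% of all genes). Iigp1 and Gbp3 encode GTPases that attack the vacuoles of pathogens. Iigp1 lay at 5.05, 9.46 and 7.75 CPM without AQ and at 13.4, 12.1 and 17.7 CPM with it (log2 fold change 0.89 ± 0.297 (SE), limma adjusted p = 0.226). Gbp3 lay at 4.08, 4.4 and 6.95 CPM without AQ and at 9.05, 8.26 and 11.5 CPM with it (log2 0.80). The chow mice with AQ averaged 15 CPM of Iigp1 and 6.83 CPM of Gbp3 against 8.87 and 4.48 CPM without it. Leukocyte markers, by contrast, lay lower with AQ on HFD, as given above.

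No vessel gene other than Erg passed. Of 17 endothelial markers 13 lay above 0, with a median of 0.10 (0.05, with 11 above 0, without untreated library 3), and their sum ranged over 722 to 815 CPM without AQ and 788 to 863 CPM with it. The junction cadherin gene Cdh5 lay at 119, 126 and 123 CPM and 144, 159 and 142 CPM (log2 0.27, limma adjusted p = 0.249), and Pecam1 at 103, 114 and 99.2 CPM and 120.2, 117 and 106 CPM with overlap. In the angiogenesis list 26 of 36 lay above 0 (median 0.04), and 18 without untreated library 3 (median 0.00). Dll4, the Notch ligand of sprouting vessels, lay at 7.19, 14.2 and 12.5 CPM and 18, 19.7 and 17.6 CPM (log2 0.71, limma adjusted p = 0.199), and the Notch target Hes1 at 14.7, 13.6 and 14.8 CPM and 19.4, 19.1 and 19 CPM. Both were above all 15 other libraries. Vegfa overlapped at 370.2, 392 and 253 CPM and 316, 294 and 299 CPM. Among 22 adhesion genes of the cadherin list, Pcdh19 lay beside Cdh23 at 7.88, 8.47 and 10.7 CPM and 13, 11.7 and 12 CPM (log2 0.41).

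None of the listed contractile and sugar-burning genes passed. Fast fibre genes lay below 0 in 12 of 13 (median -0.15) and slow fibre genes above 0 in 8 of 13 (median 0.04). Without untreated library 1 these medians were -0.04 and -0.09, and without untreated library 2 that of the slow fibre genes was 0.17. Actn3, the fast fibre actinin gene, lay at 9270.2, 6599.6 and 7681 CPM and 6215, 6433 and 6259.5 CPM (log2 -0.30, limma adjusted p = 0.565). Glycolysis genes lay below 0 in 13 of 17 (median -0.13, -0.06 without untreated library 1 and -0.28 without untreated library 3), with Ldha at 2545, 2198 and 1968 CPM and 1868, 1895 and 1839 CPM. The glucose transporter gene Slc2a4, which encodes the insulin-regulated GLUT4, lay at 625, 668 and 568 CPM and 614, 653 and 602 CPM, with overlapping groups. In lipogenesis Scd1, a desaturase gene that fat cells also express, lay at 255, 227 and 226 CPM and 186, 99 and 150.0 CPM (log2 -0.74, limma adjusted p = 0.139). The lipogenesis list as a whole had 9 of 17 genes above 0, and 5 without untreated library 2. Against HFD-WT 3 of the 17 lay above 0, with a median of -0.35, and 5 fell (against 8.09% of all genes).

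None of the 3 NR4A receptor genes passed. Nr4a2, which encodes NURR1, lay at 1.59, 1.49 and 1.07 CPM without AQ and 0.828, 1.26 and 2.03 CPM with it (log2 fold change -0.03 ± 0.268 (SE), limma adjusted p = 0.979). Nr4a1 lay at 209.7, 161 and 122 CPM and 136, 132 and 136 CPM. The HFD-WT libraries held 184 to 258 CPM of Nr4a1, and against them it was lower with AQ (log2 -0.77, limma adjusted p = 0.0298). AQ and the difference between the cohorts cannot be told apart there. Nr4a3 was at 6.85, 6.47 and 1.4 CPM and 1.34, 1.47 and 1.57 CPM, so that untreated libraries 1 and 2 were high and library 3 lay within the AQ range (log2 -1.08, limma adjusted p = 0.254). Without untreated library 3 the log2 fold change of Nr4a3 was -1.64 (limma adjusted p = 0.0171), and against HFD-WT it was -0.40 (limma adjusted p = 0.519).

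The plot of list means by library shows which libraries carry each difference. Untreated library 1 was highest for the collagen list (0.58 above the mean of the 6 libraries on the log2 scale), untreated library 2 for the immediate early (0.85) and heat shock (0.72) lists, and untreated library 3 for the adipocyte list (0.54). The AQ libraries were on 1 side of all 3 untreated libraries for the collagen, remodelling, leukocyte, interferon and amino acid lists, among others. They overlapped with untreated library 3 for the immediate early, glucocorticoid and NR4A lists.

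**Figure D5:**
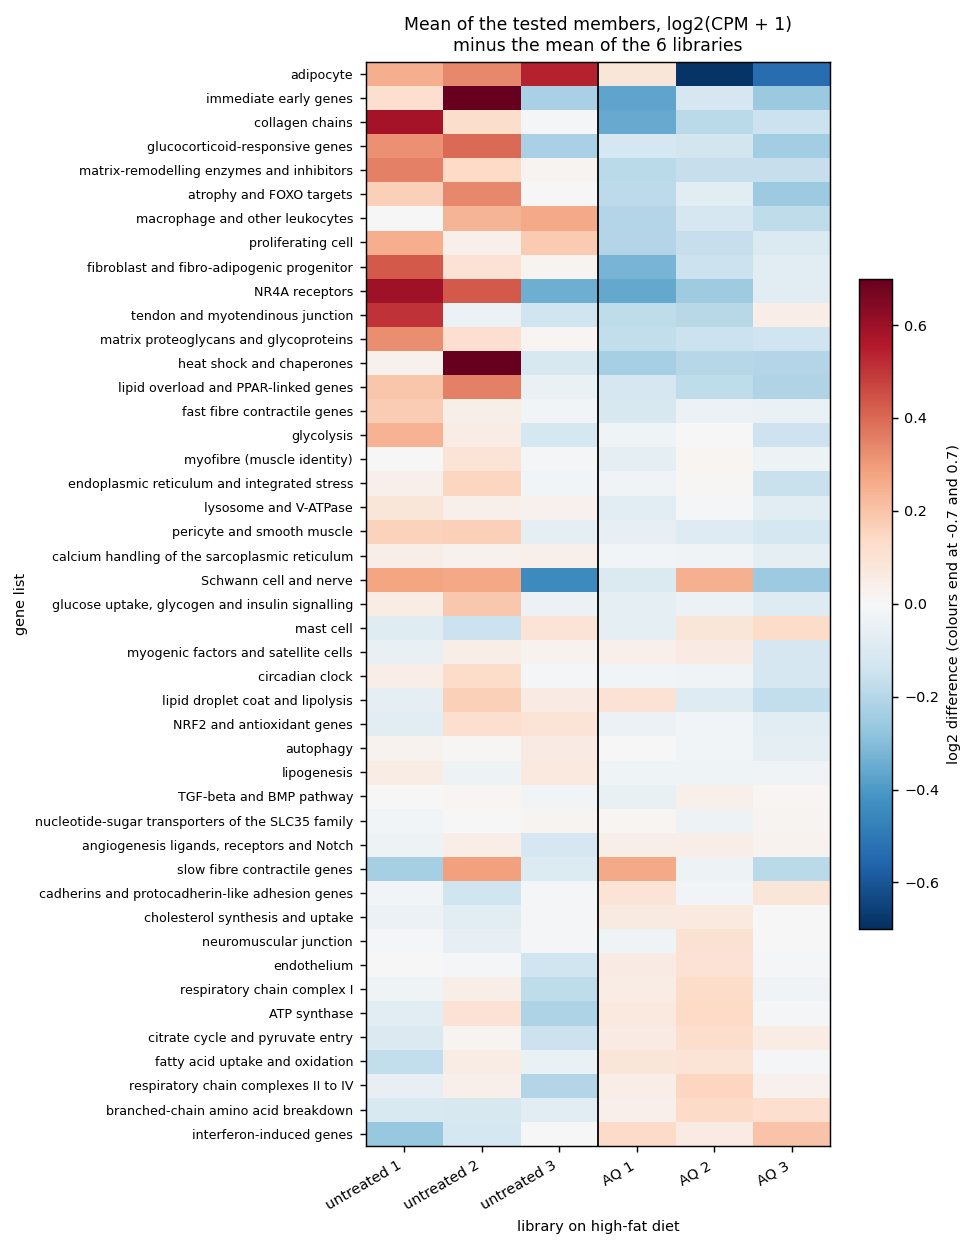
Mean log2(CPM + 1) of the tested members of each of the 45 lists (vertical axis) in the 6 libraries (horizontal axis), less the mean of the 6 libraries, with red for higher and blue for lower values and colours ending at -0.7 and 0.7. Untreated libraries 1, 2 and 3 differ in which lists are high, and the AQ libraries differ most among themselves for the adipocyte, Schwann cell and slow fibre lists.

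The difference between diets was tested as the AQ effect on HFD minus the AQ effect on chow, in the same limma fit, and 89 of all genes passed (0.711%). Of the 6 called genes, Vcan (-1.19 ± 0.254 SE, adjusted p = 0.0374) and 1500017E21Rik (-1.13 ± 0.158 SE, adjusted p = 0.00786) differed by limma. On chow Vcan averaged 15.5 CPM without AQ and 16.6 CPM with it. The difference for Plin4 was 0.06 ± 0.162 SE (limma adjusted p = 0.913), and those for Erg, Slc35f5 and Cdh23 did not pass (adjusted p = 0.0934, 0.138 and 0.23). For Fbn1 and Loxl1 the chow mean was higher with AQ than without it. Fbn1 averaged 75.6 CPM on chow and 128 CPM on chow with AQ, against 87.1 and 43.8 CPM on HFD. Loxl1 averaged 19.4 and 30.6 CPM on chow, against 22.8 and 14.3 CPM on HFD. The difference between the diets passed for both, as it did for Col4a1, Col5a1, Col5a3 and Mfap5.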

How the data were processed

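Per the labels' protocols, RNA of 18 skeletal muscle samples was isolated with TRIzol and sequenced from 1 end over 50 bases. The authors deposited 1 table of 12558 genes by symbol with a signal per library, named CPM in the file, which is reads relative to a scaled library size. The submitters' processing notes name GRCm38 and mm10 as builds and TopHat2 2.0.12 and edgeR as tools. How reads were counted, and whether by strand, is not given in the sources used here. All deposited values (100%, tolerance 1e-06 reads) were whole multiples of 1 read's worth in their library, so reads could be recovered. Floors (3 reads) cover counting error only, while the SE and SD values given measure the spread between libraries.

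The test was limma 3.58.1 (R 4.3.3) on log2(signal + 1), with all 6 groups in 1 fit (12 residual degrees of freedom), two-sided, and Benjamini-Hochberg adjustment over the 12524 genes that reached 1 CPM in 3 or more libraries. It was also run on simulated reads with changes of 2-fold and 4-fold and the same spread in every group. Smaller changes and groups of unequal spread were not simulated. The 45 gene lists and the genes in them (35 pathway lists and 10 marker lists, 918 of 960 entries tested, some genes in several) were chosen with earlier results of these data known. Lists are described by counts and medians without a test. Named were genes past the threshold, the 12 next by p each way (groups apart, higher mean at least 5 CPM, unnamed models left out), up to 4 members of each list with the largest fold change among those with groups apart (otherwise the 2 smallest p), the first 2 of a list, and the NR4A genes. Alternatives were pseudocounts of 0.25 and 4, no filter or 5 CPM, a fit of the 2 groups alone, a replicate block, scaling to a common sum, removal of GC trends (loess, span 0.3), HFD-WT as or within the untreated group, each library left out, and limma-voom, edgeR 4.0.16 and DESeq2 1.42.0 on recovered reads. Gene locations came from GENCODE mouse release 21 (12024 symbols matched directly, 468 by older names). Libraries of a group differed by more than sampling noise (chi-square over degrees of freedom 4.26 or more). Values of a few single genes that the naming rule selects are not reported here, and counts and medians include them.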

Additional observations from a re-analysis of the deposited data

Results flagged for a closer look

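For 17 of the 228 genes that the naming rule selects the effect of AQ differed between the diets, by the limma interaction test with Benjamini-Hochberg adjustment over all tested genes (adjusted p from 0.00786 to 0.047). Of all 12524 tested genes 89 passed (0.711%). Many of the 228 were chosen for differences on HFD in the same libraries, so that nothing is read from their larger share. Values are the log2 fold change of AQ on HFD minus that on chow, with no explanation tested.

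Of these, 15 had the lower value on HFD. Among matrix genes the differences were -1.78 for Col5a3, -1.68 for the fibrillin gene Fbn1, -1.44 for Col4a1, -1.25 for the crosslinking enzyme gene Loxl1, -1.21 for Col5a1, -1.19 for Vcan and -0.96 for Mfap5. Among immune genes they were -1.94 for the complement gene C4b, -1.15 for the chemokine gene Ccl6 and -0.85 for Pld4. In metabolism and stress they were -1.68 for the desaturase gene Scd1, -0.99 for the glucose transporter gene Slc2a1, -0.97 for the haem oxygenase gene Hmox1 and -0.55 for Mlxipl, which encodes the sugar-sensing factor ChREBP. The antisense RNA 1500017E21Rik differed by -1.13.

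The other 2 had the higher value on HFD. The Rac exchange factor gene Prex2 differed by 0.80 and Lnp by 0.56.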

How the results depend on the processing

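The main analysis called 6 genes, 2 higher and 4 lower. The count was 1 with only the 2 groups compared (Angptl4, none of the 6 kept), 49 with the replicate block (6 kept), 1737 with HFD-WT as the untreated group (4 kept, Plin4 and Slc35f5 lost), 719 with the mean of both untreated groups (6 kept) and 143 with DESeq2 (6 kept). Leaving out single libraries gave 0 to 224 calls. The count was 224 without untreated library 3, 1 without untreated library 1, untreated library 2 or AQ library 1, and 0 by limma without AQ library 2 or AQ library 3, where 1209 and 1067 genes had an unadjusted p under 0.05. Scaling to a common sum called 6, 4 higher and 2 lower, shifted the median of all genes to 0.06, and turned the medians of the lipid droplet, glucose, clock, NRF2 and autophagy lists. The other 7 alternatives called 5 to 8 genes. Each of the 6 genes passed in 11 to 14 of 19 alternatives. With HFD-WT as the untreated group Srebf1 (-1.05), Srebf2 (-0.48) and Tgfb2 (-0.47) reversed and passed, and the cause was not tested. Same-numbered libraries of the 2 groups correlated at -0.103, 0.105 and -0.018 in their deviations, and 2 of 6 libraries correlated best with their own number. So few libraries cannot tell whether the numbers pair them. Genes near 0.191 to 0.277 CPM rest on 3 reads.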

Other observations

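Genes of the neuromuscular junction had fold changes of both signs, and none passed. Musk, the receptor kinase that clusters acetylcholine receptors, lay at 47.8, 60.8 and 51.6 CPM without AQ and 35.1, 37.3 and 28.2 CPM with it (log2 fold change -0.66, limma adjusted p = 0.133). Its partner Lrp4, the agrin receptor, lay at 12.7, 13.2 and 20.9 CPM against 21.5, 25.3 and 27.1 CPM (0.66, limma adjusted p = 0.0919). In neither gene did the groups overlap. The HFD-WT libraries held 23.5 to 25.8 CPM of Musk, below every AQ library. Of the 16 tested genes of the list 11 lay above 0.

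Satellite cell and myogenic genes lay above 0 in 8 of 21. Myod1, a factor that commits cells to muscle, was at 11.2, 17.1 and 15.9 CPM without AQ and 19.4, 22.2 and 17.5 CPM with it, while Myf6, its relative in mature fibres, was at 89.8, 109 and 95.1 CPM against 68.4, 83 and 79.8 CPM. The stem cell gene Pax7 overlapped between groups. Among calcium-handling genes 14 of 20 lay below 0, and Asph was below all 15 other libraries of the series, with a log2 fold change of -0.31 (limma adjusted p = 0.155). Cholesterol synthesis and uptake genes lay above 0 in 15 of 20, with a median of 0.07 against the untreated group and -0.16 against HFD-WT.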
